A study of Homo sapiens with 4 samples.

Results

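Cells that carried transcripts of mitotic genes were compared with cells that carried none, within 1 culture of vemurafenib-resistant melanoma cells (RV). The members were chosen by their own UMI counts (unique molecular identifiers, the counted transcript molecules). RV barcodes passed with 500 genes or more and a mitochondrial share of UMIs up to 20%, and in each the UMIs of 10 marker genes were added up (*TOP2A*, *MKI67*, *CENPF*, *UBE2C*, *HMMR*, *TPX2*, *PLK1*, *CENPA*, *ASPM* and *BIRC5*). Cells with 5 or more such UMIs formed the marker-high class, which holds 1647 of the 4327 RV cells that passed the filter, or 38.1% (36.6 to 39.5, exact Clopper-Pearson interval at 95%). Cells with none formed the marker-free class of 1365 cells (31.5%), and 1315 cells with 1 to 4 UMIs (30.4%) lay between them. The series has 30716 barcodes in all, of which 28640 passed the filter. The study states a number of RV cells so much smaller than the barcodes here that most of these cells must lie outside its set. It names a removal of dead and doublet cells only after stating its cell numbers, and its numbers for the 2 double-resistant cultures equal the barcodes here. How its RV number was reached is not given in the sources used here.

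A375 is an established *BRAF*-mutant human melanoma line. Vemurafenib inhibits mutant BRAF. RV cells had been kept on vemurafenib for 10 to 14 days and were taken off the drug 24 h before capture, whereas S cells were untreated and sensitive. RVC and RVT cells, resistant to vemurafenib with the MEK inhibitor cobimetinib or trametinib, had the same days on the drugs and the same washout. Each condition is 1 droplet library of 1 culture (10x Genomics Chromium v2, 10000 cells loaded). Cells of 1 library are not replicates, and no test was made: values stand with exact 95% intervals that cover counting error only, Poisson for levels and conditional binomial for ratios. Levels are CPM, the UMIs of a gene per 1000000 UMIs of all cells of the class, and a pair of levels runs from marker-free to marker-high cells.

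A dividing cell doubles its DNA in S phase and separates the copies in M phase. Before S phase the E2F factors switch on the enzymes of nucleotide synthesis and the replication fork. Later FOXM1 and the MYB-MuvB complex switch on cyclin B, the mitotic kinases and the kinetochore and spindle genes, which are held down in resting cells by the related DREAM complex. Transcripts of the second group begin to appear before S phase is over, peak in G2 and M phase, and many of their proteins are destroyed after anaphase by the anaphase-promoting complex. Inhibitors of BRAF arrest sensitive melanoma cells in G1.

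Marker-high RV cells were deeper than the others, with a median of 13686 UMIs per cell, against 10955 in intermediate and 10235 in marker-free cells. A deeper cell reaches 5 UMIs more easily, and a cell with more RNA is also deeper, and these cannot be told apart here. With every cell thinned at random to 5000 UMIs and then classed anew, 940 of 4227 cells still had 5 or more and 1838 had none. At the threshold, 144 cells had 4 marker UMIs (median 11774 UMIs in all) and 123 had 5 (median 11872), so the classes are ranges of a continuous count. The median marker-high cell had 14 marker UMIs and the highest had 132.

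**Figure D1:**
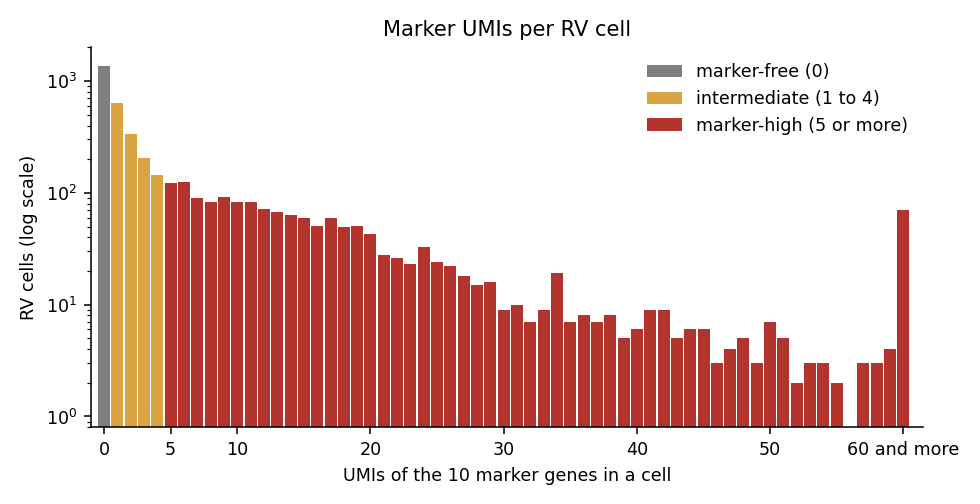
UMIs of the 10 marker genes per RV cell (horizontal axis, cells with 60 or more in the last bar) against the number of cells (vertical axis, log scale). Bars are coloured by class, 1365 marker-free, 1315 intermediate and 1647 marker-high cells, and the number falls without a gap at the threshold of 5.

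Of the marker UMIs of the marker-high class, 34.9% came from *UBE2C*, the ubiquitin-conjugating enzyme of the anaphase-promoting complex. *CENPF*, a kinetochore protein of G2 and mitosis, gave 15.7%, *TOP2A*, the topoisomerase that untangles sister chromatids, 12.8%, and *BIRC5* (survivin) 10.5%. *PLK1*, the kinase of mitotic entry and exit, gave 6.70%, and *MKI67*, the Ki-67 protein of cycling cells, 5.71%. The other genes each gave 2.61% (*ASPM*) to 5.32% (*TPX2*). *UBE2C* stood at 42.6 CPM in intermediate and 442 in marker-high cells. These levels follow from the choice of cells.

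The classes were also described with 10 mitotic genes outside the marker set. These genes move with the marker genes in the cycle, so higher levels follow largely from the choice of cells and are no independent check of the label. All 10 were higher in marker-high than in marker-free cells. *CCNB1*, the cyclin B1 that drives mitotic entry, had 7.20 CPM in marker-free, 15.8 in intermediate and 93.3 in marker-high cells. Its partner kinase *CDK1* had 2.36 CPM in marker-free, 9.03 in intermediate and 56.5 in marker-high cells. *AURKA*, the kinase of the centrosomes, rose from 3.86 to 63.4 CPM and *CCNA2*, cyclin A2, from 1.05 to 39.98 CPM. *KIF20A*, a kinesin of cytokinesis, had no UMI in the marker-free cells, where 3 UMIs are 0.196 CPM, and 8.94 CPM in marker-high cells. The same class also carried far more transcripts of S phase. *HIST1H4C*, a histone H4 gene expressed with DNA replication, had 575 CPM in marker-free, 1265 in intermediate and 5723 in marker-high cells.

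Divided by their marker UMIs, the cells passed through a series of levels (0, 1 to 4, 5 to 9, 10 to 19, 20 to 39, and 40 or more marker UMIs, with 1365, 1315, 512, 640, 337 and 158 cells). The summed level of 10 mitotic genes outside the rule was 156, 352, 589, 789, 1069 and 2018 CPM in this order, and was highest in the last group. The G1/S and DNA replication list went through 916, 1813, 2785, 2913, 2505 and 2023 CPM and was highest at 10 to 19 marker UMIs. *HIST1H4C* had 575, 1265, 4602, 6735, 7069.7 and 2649.8 CPM, so it was high between 5 and 39 marker UMIs and lower in the last group. *SLBP*, the protein that binds histone mRNA, already turned down earlier, with 21.996, 33.5, 42.8, 27.7, 17.9 and 20.6 CPM. *UNG*, a uracil-DNA glycosylase of the S phase, had 11.9, 23.3, 27.2, 19.4, 8.43 and 5.66 CPM and ended below the marker-free level. *CCNB1* was higher in each group than in the one before, with 7.20, 15.8, 40.5, 66.5, 109 and 263 CPM, and *KPNA2*, a nuclear import receptor, did likewise (28.0, 43.4, 65.3, 93.3, 151 and 330.0 CPM).

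**Figure D2:**
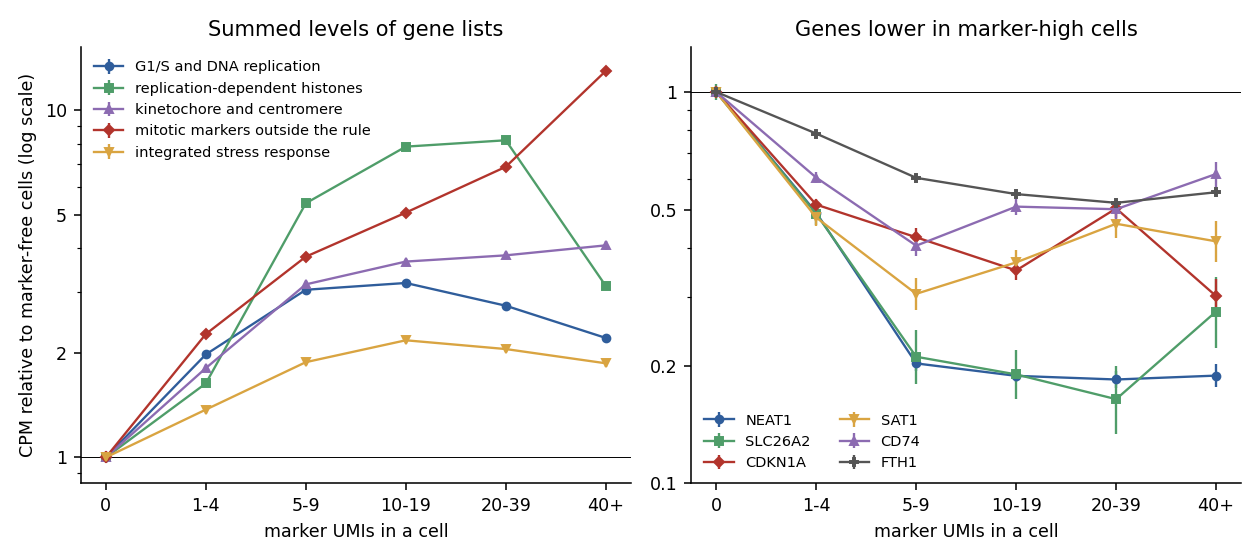
CPM relative to marker-free RV cells (log scale) in 6 groups of cells by marker UMIs. In the left panel the mitotic markers outside the rule climb to the last group while histone transcripts turn down there and replication transcripts after 10 to 19 marker UMIs, and in the right panel *NEAT1* and *SLC26A2* reach their low level at 5 to 9 marker UMIs. Bars are exact 95% Poisson intervals of the numerator.

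In single cells thinned to 5000 UMIs, with limits chosen after the values were seen, 76.5% of 1627 marker-high cells had 10 or more *HIST1H4C* UMIs, against 19.2% of intermediate and 2.81% of marker-free cells. At least 5 UMIs of the 10 mitotic genes outside the rule were present in 42.0% of marker-high, 9.98% of intermediate and 1.67% of marker-free cells. The classes are those set at full depth. After thinning, the median cell had 2 UMIs of these genes at 5 to 9 marker UMIs, 3 at 10 to 19 and 5 at 20 to 39. The shares past each limit thus depend on the limit and the depth, and the histone and mitotic shares cannot be set against each other. Of the marker-high cells, 49.7% passed only the histone limit, 26.7% passed both, 15.2% passed only the mitotic limit and 8.30% neither. Among the 158 cells with 40 or more marker UMIs, 93.0% passed the mitotic limit and 58.2% passed it with few histone transcripts. Among the 1469 cells with 5 to 39 marker UMIs, 36.5% passed the mitotic limit. Most cells of the class thus carried many copies of a transcript of DNA replication, and the class is called marker-high here rather than mitotic.

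Markers of the melanoma line were present in all classes. *VIM* (vimentin) had 2457 CPM in marker-free, 2619.6 in intermediate and 2662 in marker-high cells. Of the melanocyte factors, *SOX10* was at 51.7 to 32.8 CPM and *MITF* at 12.7 to 24.3 CPM, both under 2-fold and in opposite directions. Of 14 markers of other cell types none reached 10 CPM, and their sum was 2.81 CPM in marker-free and 1.93 in marker-high cells, with *PTPRC*, *CD3E*, *CDH1*, *ALB*, *PPBP*, *HBB* and *HBA1* at 0 in both. The culture has no cell type that lacks cell cycle genes, so there is no measure of the free RNA that droplets share, and a low level in marker-free cells may include it. RV shares 38 cell barcodes with S and 53 each with RVC and RVT.

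Outside the 10 marker genes, 5811 genes had at least 10 CPM over all RV cells. Of these, 309 (5.32%) were at least 2-fold higher in marker-high cells and 62 (1.07%) at least 2-fold lower. These shares are the background for the counts in the gene lists below, and since the cells were chosen by transcripts that move with the cycle, the counts describe the classes and support nothing. Marker-high cells held 24390042 of the 55283706 UMIs and marker-free cells 15275724. A gene present only in marker-high cells thus passes 10 CPM more easily than one present only in marker-free cells. The list counts cover only members that passed. The ratio was at least 4-fold for 91 of the higher and 3 of the lower genes, and 123 of the 309 belong to a list of cell cycle, chromosome, tubulin or histone genes. The median gene was 0.19 higher on the log2 scale, so a value near 0.19 is that of the median gene. Scaled by the median of ratios, which sets the median gene to 0, the counts were 222 higher and 112 lower, so that 66.5% of the genes past 2-fold were higher, against 83.3% with the scaling used here. The ratios depend on which marker-free cells are taken. Against only those with a low share of G1/S transcripts, a choice that by its construction takes out cells with cell cycle transcripts, 44 of 90 named genes past 2-fold moved by more than 1.5 times, all away from 0. With cells classed anew after thinning 13 moved by as much, all towards 0, and with 5 marker genes 5 did.

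**Figure D3:**
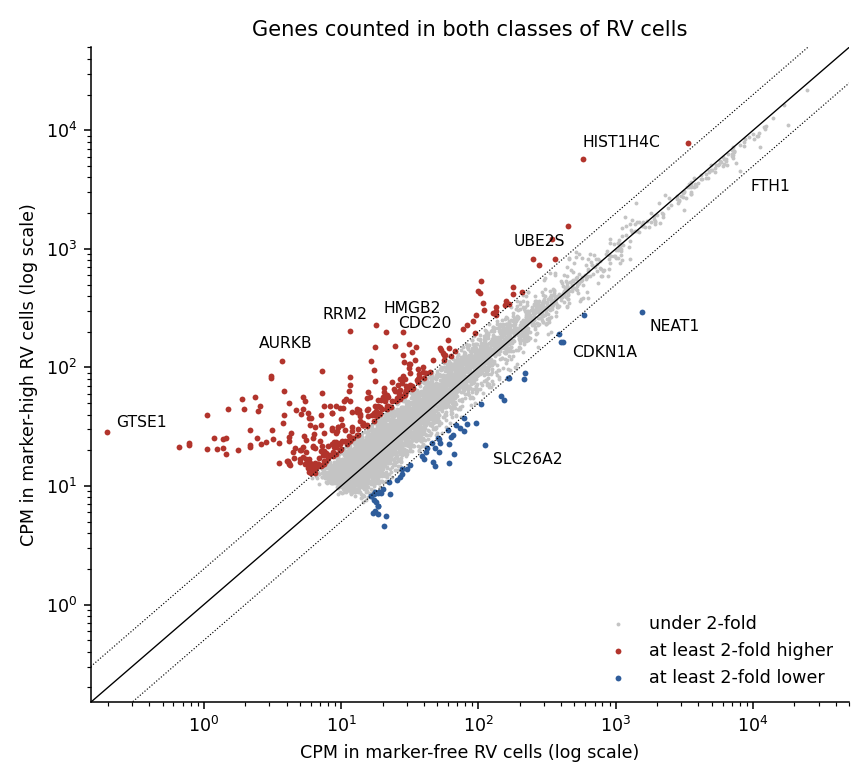
CPM of 5811 genes in marker-free RV cells (horizontal axis) and marker-high RV cells (vertical axis), both on log scales, each point 1 gene. Dotted lines mark a 2-fold ratio. Of the 309 higher genes 79 have at least 50 CPM over all RV cells, *HIST1H4C* lies far above the line, and *NEAT1* and *SLC26A2* lie farthest below.

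*AURKB*, the kinase of the chromosomal passenger complex that corrects wrong spindle attachments (chromosome 17, 8204733 to 8210600, GRCh38), showed the largest ratio among genes with at least 50 CPM. It had 3.73 CPM in marker-free, 14.4 in intermediate and 112 in marker-high cells, a rise of 30.1-fold (23.2 to 39.9). *RRM2*, the subunit of ribonucleotide reductase made in S phase (chromosome 2, 10120698 to 10131419), had 11.6 CPM in marker-free, 47.3 in intermediate and 204 in marker-high cells, 17.6-fold (15.2 to 20.6). *HMGB2*, a chromatin protein of cycling cells (chromosome 4, 173331695 to 173335125), had 17.9 CPM in marker-free, 55.8 in intermediate and 229 in marker-high cells, 12.8-fold (11.4 to 14.6). *HIST1H4C* (chromosome 6, 26103876 to 26104310) followed with 9.96-fold (9.74 to 10.2). *CDC20*, the activator of the anaphase-promoting complex (chromosome 1, 43358955 to 43363203), had 21.3 CPM in marker-free, 74.1 in intermediate and 201 in marker-high cells, 9.40-fold (8.40 to 10.5), and *SMC4*, a core subunit of condensin (chromosome 3, 160399274 to 160434962), had 17.7 CPM in marker-free, 43.0 in intermediate and 148 in marker-high cells, 8.39-fold (7.42 to 9.54). For each of these 6 genes the intermediate cells lay between the other classes. Against marker-free cells with a low G1/S share the log2 ratio of *RRM2* was 5.54 in place of 4.14, that of *HMGB2* 4.68 in place of 3.68, that of *CDC20* 4.55 in place of 3.23 and that of *SMC4* 3.66 in place of 3.07. *RRM2* is itself a G1/S transcript, so this choice raises its ratio by construction.

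Next in order came *CKS2* (7.11-fold) and *CKS1B* (5.12-fold), the small subunits that bind cyclin-dependent kinases, *CENPU* (6.93-fold), a kinetochore protein, and *UBE2T* (6.11-fold), the ubiquitin-conjugating enzyme of Fanconi anemia repair. *TK1* (thymidine kinase) rose from 31.2 to 158 CPM and *DTYMK* (thymidylate kinase) from 35.4 to 149 CPM. *PCLAF*, a partner of the replication clamp PCNA, rose from 99.5 to 439 CPM, and *KPNA2* from 28.0 to 128 CPM. Against marker-free cells with a low G1/S share the log2 ratio of *CENPU* was 4.83 in place of 2.79 and that of *UBE2T* 3.91 in place of 2.61. There *TK1*, itself a G1/S transcript, was at 4.41 in place of 2.34, *PCLAF* at 3.23 in place of 2.14 and *KPNA2* at 2.39 in place of 2.19. In cells thinned to 5000 UMIs the median marker-high cell had 29 UMIs of *HIST1H4C* (quartiles 10 to 44), where the marker-free median was 2. For *RRM2* and *CDC20* these medians were 1 and 0.

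The promoters of the 4 genes with the largest ratios among those with at least 50 CPM and an entry in the RefSeq promoter table are shown because cell cycle genes are known for shared promoter elements. They are the 250 bases before the transcription start, 5′ to 3′ on the strand of the gene (GRCh38.p14): *AURKB* at chr17:8210226-8210475 on the minus strand, *RRM2* at chr2:10122489-10122738, *CDC20* at chr1:43358731-43358980 and *SMC4* at chr3:160399400-160399649, all 3 on the plus strand. Capitals mark matches on either strand to CCAAT (the box bound by NF-Y), TTTGAA (the cell cycle genes homology region, CHR, bound by MuvB complexes) or the E2F sites TTCCCGC and TTGGCGC. *HMGB2*, *HIST1H4C* and *UBE2C* are not in the table. GENCODE places other starts of these genes farther upstream, so the windows overlap the spans given above.
AURKB: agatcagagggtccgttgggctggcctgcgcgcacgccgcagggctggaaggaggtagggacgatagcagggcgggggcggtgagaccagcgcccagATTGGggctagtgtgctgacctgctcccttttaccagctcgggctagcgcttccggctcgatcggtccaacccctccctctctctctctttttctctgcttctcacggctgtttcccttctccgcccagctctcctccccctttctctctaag
RRM2: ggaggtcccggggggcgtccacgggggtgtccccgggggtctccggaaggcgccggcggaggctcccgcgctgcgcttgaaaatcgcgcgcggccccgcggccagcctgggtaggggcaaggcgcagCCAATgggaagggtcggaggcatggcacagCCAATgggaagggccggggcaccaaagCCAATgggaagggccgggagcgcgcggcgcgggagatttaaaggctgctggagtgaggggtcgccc
CDC20: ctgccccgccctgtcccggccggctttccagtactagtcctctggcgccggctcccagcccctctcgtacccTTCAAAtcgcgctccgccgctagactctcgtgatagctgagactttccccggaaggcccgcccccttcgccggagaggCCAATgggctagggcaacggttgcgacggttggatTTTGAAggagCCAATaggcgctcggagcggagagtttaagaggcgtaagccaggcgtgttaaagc
SMC4: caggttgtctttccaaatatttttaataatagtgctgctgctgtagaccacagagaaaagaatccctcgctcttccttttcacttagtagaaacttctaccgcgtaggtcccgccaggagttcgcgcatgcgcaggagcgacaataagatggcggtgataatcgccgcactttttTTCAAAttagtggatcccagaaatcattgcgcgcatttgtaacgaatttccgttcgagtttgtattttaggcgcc

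*CDC20* held 2 CCAAT boxes and 2 CHR matches, of which the nearer CHR began 65 bases before the start and the nearer CCAAT 55 bases before it. *RRM2* held 3 CCAAT boxes, beginning 123, 93 and 66 bases before the start. *AURKB* held 1 CCAAT box, on the other strand, and *SMC4* 1 CHR match, also on the other strand. None of the 4 windows held these letters of the E2F sites. Among all 27305 promoters of the table, 33.0% held CCAAT, 13.3% TTTGAA, 5.71% TTCCCGC and 2.61% TTGGCGC. Of the 5811 genes counted, 4675 had a promoter in the table, and the shares were 35.8%, 7.19%, 10.5% and 4.43%. For the 242 higher genes with a promoter they were 52.1%, 17.4%, 18.2% and 8.68%, and for the 41 lower genes 39%, 14.6%, 7.32% and 0%. A match is a description of letters and no binding site.

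The list of mitotic cyclins, kinases and phosphatases has 26 genes, of which 14 reached 10 CPM over all RV cells. All 14 were at least 2-fold higher, with a median log2 ratio of 3.54 against 0.19 for all genes. Members with few UMIs in marker-free cells passed that limit through the marker-high cells, so this count was partly set by the filter. The sum of the 26 genes was 213, 459 and 1499 CPM in marker-free, intermediate and marker-high cells. *GTSE1*, a microtubule-binding protein of G2, had 3 UMIs in all marker-free cells and 690 in marker-high cells (28.3 CPM), a ratio with an interval of 49.1 to 700.2. *PBK*, a mitotic kinase, rose from 3.08 to 84.5 CPM. With cells classed anew after thinning the log2 ratio of *GTSE1* was 5.40 in place of 7.17 and that of *PBK* 3.67 in place of 4.78. The smallest rise of the list was that of *CDC25B*, a phosphatase that activates CDK1, from 29.7 to 64.9 CPM, 2.18-fold (1.96 to 2.43), and with the median of ratios it was under 2-fold (0.93 on the log2 scale). *CCNB2*, cyclin B2, rose from 8.31 to 47.1 CPM.

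Of 37 kinetochore and centromere genes 26 were counted, and 20 of these were at least 2-fold higher and none lower (median log2 ratio 2.26). *NDC80* and *NUF2*, which form the microtubule-binding arm of the kinetochore, rose from 0.655 to 21.3 CPM and from 1.51 to 44.6 CPM. *SGO1*, the protector of cohesion at the centromere, rose from 1.90 to 54.2 CPM, and *HJURP*, the chaperone that loads CENP-A, from 0.786 to 22.1 CPM. The constitutive members differed less, *CENPB* at 1.31-fold and *PMF1* at 1.31-fold. In the list of 33 kinesins, spindle and cytokinesis genes 19 were counted, and 18 of these were at least 2-fold higher (median 3.07). *NUSAP1*, which bundles spindle microtubules, rose from 3.08 to 81.0 CPM and *CEP55*, of the abscission bridge, from 2.55 to 47.6 CPM. The exception was *NUMA1*, a nuclear and spindle pole protein present throughout the cycle, at 1.03-fold (0.886 to 1.197).

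Condensin, cohesin and chromosome genes were at least 2-fold higher in 22 of 28 cases (median log2 ratio 1.57), and summed to 1813, 2949.6 and 4735 CPM in the 3 classes. *CDCA5* (sororin, which locks cohesin), rose from 2.49 to 42.8 CPM and *CDCA8* (borealin, of the passenger complex) from 1.44 to 25.3 CPM. *HMGN1*, a nucleosome-binding protein, was at 1.31-fold. Among tubulins and their regulators 4 of 10 passed 2-fold, *STMN1* (stathmin, which destabilises microtubules) from 103 to 421 CPM, *TUBA1B* from 451 to 1552 CPM, *TUBB4B* from 91.8 to 247 CPM and *TUBG1* (gamma-tubulin) from 67.6 to 138 CPM. *TUBG1* was under 2-fold with cells classed anew after thinning (0.96 on the log2 scale), with the median of ratios (0.84) and with TMM scaling. Tubulin genes are near-identical copies, so their reads may be shared, and *TUBA1A* went the other way, from 37.97 to 24.1 CPM. In the anaphase-promoting complex list the 5 of 17 members past 2-fold included *CDC20*, the separase inhibitor *PTTG1* (securin, 108 to 346 CPM) and *UBE2S* (249 to 817 CPM), the enzyme that extends ubiquitin chains. The list's median log2 ratio was 0.65, and its 4 smallest ratios were those of core subunits, *ANAPC5* at 1.11-fold, *ANAPC13* at 1.15-fold, *CDC16* at 1.24-fold and *CDC26* at 0.952-fold.

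Of the G1/S and DNA replication genes 33 of 40 were at least 2-fold higher in marker-high cells and none lower, with a median log2 ratio of 1.73 and a sum of 916, 1813 and 2675 CPM in the 3 classes. *RAD51AP1*, of homologous recombination, rose from 2.16 to 29.7 CPM, and *RFC3*, of the clamp loader, from 6.02 to 37.8 CPM. Their log2 ratios, 3.78 and 2.65, were 2.92 and 1.63 with cells classed anew after thinning and 5.93 and 4.27 against marker-free cells with a low G1/S share. Both are G1/S transcripts themselves, so the last choice raises their ratios by construction. *DUT*, which removes dUTP, was at 1.71-fold and *POLD2*, a subunit of DNA polymerase delta, at 1.55-fold, both under 2-fold. *UNG* and *SLBP* were at 1.46-fold and 1.31-fold, and their intermediate level lay above both other classes. With cells classed anew after thinning both turned direction, to -0.13 and -0.11 on the log2 scale.

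The 7 counted replication-dependent histone genes were divided. *HIST1H1D* rose from 5.24 to 44.7 CPM, *HIST2H2AC* from 5.11 to 40.1 CPM, *HIST1H1E* from 5.37 to 26.3 CPM and *HIST1H4C* as given above. *HIST1H2AC* fell from 20.4 to 4.63 CPM, 4.39-fold (3.53 to 5.50), and *HIST1H1C* from 146 to 57.0 CPM, 2.55-fold (2.39 to 2.73). With cells classed anew after thinning *HIST1H1C* was at -0.91 on the log2 scale, under 2-fold. *HIST3H2A* was at 0.870-fold. Most mRNAs of this class end without a poly(A) tail, whereas the kit primes on poly(A), so the levels count the tailed part only. Histone genes are also close copies, so their reads may be shared. Of the 2224 *HIST1H1C* UMIs of marker-free cells, 276 came from 1 cell (12.4%).

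*CDKN1A*, the p21 inhibitor of cyclin-dependent kinases, was lower in marker-high cells, with 412 CPM in marker-free, 212 in intermediate and 165 in marker-high cells, a fall of 2.50-fold (2.40 to 2.60). Along the marker UMIs it had 412, 212, 175, 144, 207 and 124 CPM. After thinning, 52.3% of marker-free and 33.6% of marker-high cells had a UMI, and at full depth 64.8% and 55.7%. The median thinned cell had 1 UMI in the marker-free and 0 in the marker-high class. Free RNA, which was not measured, may add to these shares. *CDKN2D* (p19) rose from 12.0 to 29.3 CPM and *CDK2* from 8.51 to 18.3 CPM, the other 2 of 13 members of the G1 cyclin, CDK inhibitor and RB list past 2-fold. *CDK2* was at 0.73 on the log2 scale with cells classed anew after thinning, and it was also under 2-fold with the median of ratios. *CCND1*, cyclin D1, a target of the ERK pathway, had 364 CPM in marker-free, 392 in intermediate and 296 in marker-high cells, and *CDK6* was at 0.924-fold. *FOXM1* itself rose from 3.80 to 33.9 CPM, 8.94-fold (6.85 to 11.9), while *RBBP4*, a MuvB subunit, was at 1.23-fold.

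The 22 counted targets of p53 had a median log2 ratio of -0.10, with 2 members at least 2-fold higher and 1 lower. This list leaves out *CDKN1A*, itself a p53 target, whose fall past 2-fold is given above with the CDK inhibitors. *GADD45A*, a stress gene also induced by ATF4, rose from 76.7 to 212 CPM and *SESN2*, likewise shared with that response, from 11.9 to 25.3 CPM. *ZMAT3* fell from 19.5 to 8.73 CPM, 2.23-fold (1.87 to 2.68). *MDM2*, the ubiquitin ligase of p53, went from 47.4 to 30.8 CPM and *PLK2* from 87.6 to 48.1 CPM, both under 2-fold. *SESN2* was under 2-fold with the median of ratios (0.89 on the log2 scale) and with cells classed anew after thinning (0.97).

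In the integrated stress response ATF4 raises genes that include those of amino acid synthesis and transport. Of 17 members 8 were at least 2-fold higher and none lower, where 5.32% of all genes were higher. The median log2 ratio was 0.96, and the sum was 1059, 1454 and 2147 CPM in marker-free, intermediate and marker-high cells. *ASNS*, asparagine synthetase, had 26.8 CPM in marker-free, 45.5 in intermediate and 79.8 in marker-high cells, 2.98-fold (2.68 to 3.32). *TRIB3*, a pseudokinase induced by ATF4, had 59.7 CPM in marker-free, 94.3 in intermediate and 170.4 in marker-high cells, 2.85-fold (2.66 to 3.07). *PSAT1*, of serine synthesis, rose from 52.1 to 147 CPM and *CEBPG*, a partner of ATF4, from 20.1 to 56.8 CPM. *ATF4* itself was at 1.44-fold, from 172 to 249 CPM, and *HERPUD1*, of the endoplasmic reticulum, at 1.44-fold. *HSPA5*, the chaperone induced by misfolded protein in that compartment, was at 0.863-fold. The sum, 1.02 higher on the log2 scale, was under 2-fold with cells classed anew after thinning (0.93), with the median of ratios (0.83) and with TMM scaling. It was also under 2-fold at a limit of 3 marker UMIs. With 5 marker genes and with equal weight per cell, 8 of the 9 list sums past 2-fold remained so, and this sum is the smallest of them. Along the marker UMIs the sum was 1059, 1454, 1991, 2302, 2172 and 1977 CPM, highest at 10 to 19.

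Of the AP-1 and immediate-early genes 3 of 12 passed 2-fold, all upward (median log2 ratio 0.58). *FOSL1* (FRA-1), an AP-1 subunit raised by ERK, had 179 CPM in marker-free, 282 in intermediate and 480.5 in marker-high cells, 2.69-fold (2.58 to 2.80). *ATF3* rose from 9.30 to 28.99 CPM and *JUN* from 12.0 to 31.4 CPM. With cells classed anew after thinning, *JUN* was at 0.81 on the log2 scale, under 2-fold. *EGR1* was at 1.95-fold, *JUNB* at 1.39-fold and *JUND* at 0.767-fold. No member of the ERK feedback and output list passed 2-fold (median 0.07, 11 genes): the phosphatase *DUSP6* was at 1.21-fold and *SPRY2* at 0.936-fold, and *DUSP4* went from 270.0 to 147 CPM. The other rises among the 10 largest outside the cell cycle lists were *RNASEH2A*, a subunit of the ribonuclease that clears RNA from DNA (34.7 to 115 CPM), *TEX30* (23.6 to 75.4 CPM), the histone chaperone *ANP32E* (31.4 to 99.3 CPM), the exosome subunit *EXOSC8* (28.3 to 84.7 CPM) and the purine transporter *SLC43A3* (31.6 to 90.2 CPM). *UBE2T*, *PCLAF* and *DTYMK*, which belong to no list here, complete these 10.

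**Figure D4:**
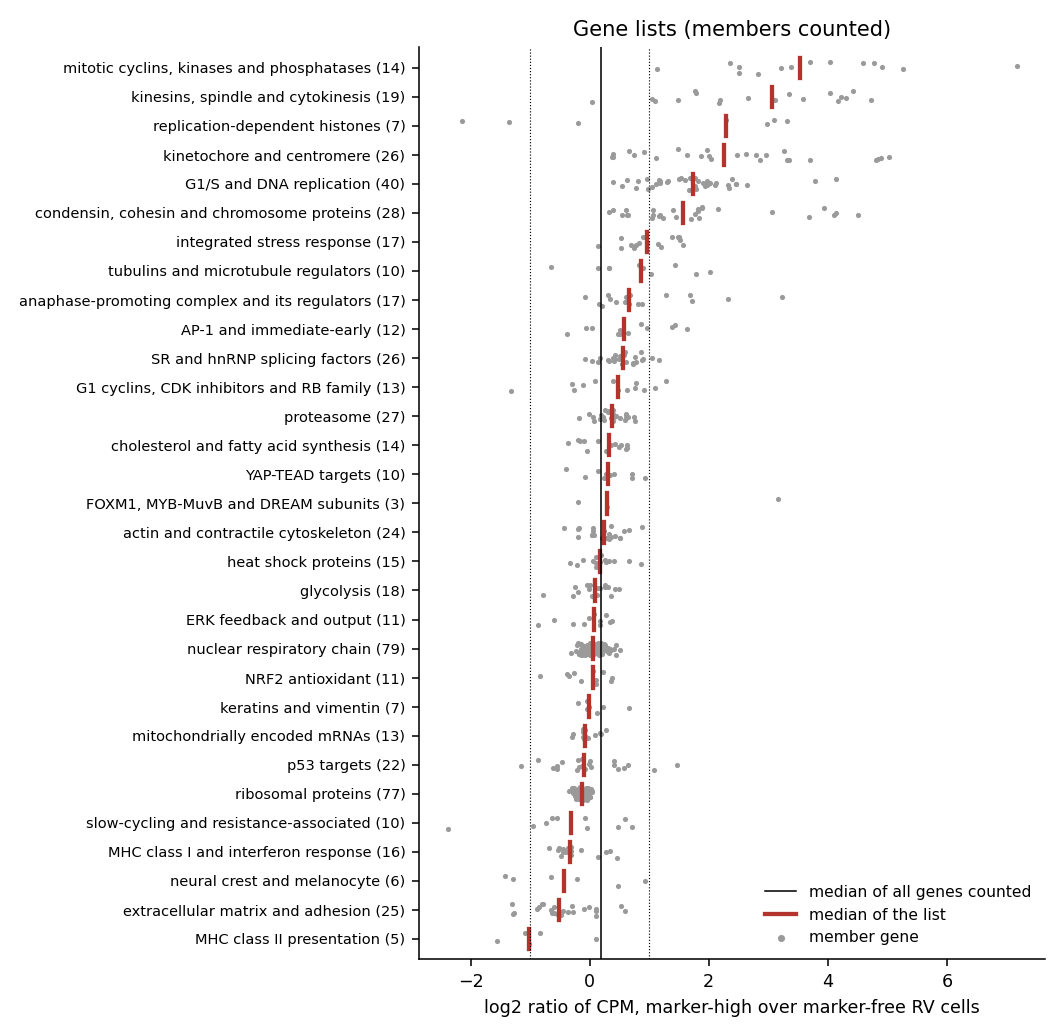
Log2 ratios of CPM in marker-high over marker-free RV cells for the members (grey points) and medians (red bars) of 31 gene lists, with the number of members counted in brackets. The vertical line is the median of all 5811 genes, 0.19, and dotted lines mark 2-fold. Mitotic, spindle and histone lists have the highest medians, MHC class II presentation the lowest.

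Most other lists stayed within 2-fold in every counted member, and a median between 0 and 0.19 turns negative when the median gene is set to 0. Ribosomal protein genes (77, median log2 ratio -0.12) took 450578 CPM in marker-free and 408800 in marker-high cells. The 13 mitochondrially encoded mRNAs had a median of -0.08, the 79 nuclear respiratory chain genes 0.05, glycolysis 0.09, heat shock proteins 0.18, the proteasome 0.37, cholesterol and fatty acid synthesis 0.32 and actin and contractile genes 0.25. Among splicing factors (median 0.56) *SRSF7* rose from 133 to 297 CPM and *HNRNPAB* from 39.8 to 82.2 CPM, 2 of 26, and both were under 2-fold with cells classed anew after thinning (0.77 and 0.96 on the log2 scale). Both were also under 2-fold with the median of ratios, and *HNRNPAB* with TMM scaling. Of the 10 counted YAP-TEAD targets (median 0.31) none passed 2-fold, with *CYR61* from 53.2 to 101 CPM and *ANKRD1* at 132 CPM in marker-free, 235 in intermediate and 157 in marker-high cells, which turned direction with cells classed anew after thinning (-0.29 on the log2 scale). *AXL*, a receptor tyrosine kinase of resistant melanoma, was at 1.65-fold. Keratins and vimentin had a median of -0.01, with *KRT7* at 1.59-fold and *KRT18* at 1.16-fold.

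*NEAT1*, the long non-coding RNA that builds nuclear paraspeckles (chromosome 11, 65422774 to 65445540), had the largest fall among genes with at least 50 CPM. It had 1548 CPM in marker-free, 761 in intermediate and 296 in marker-high cells, 5.23-fold (5.09 to 5.37) lower in the last. In thinned cells the median marker-free cell had 4 *NEAT1* UMIs (quartiles 1 to 11). In marker-high cells the median was 1 (quartiles 0 to 2). Marker-free cells thus differ widely in this RNA, up to 73 UMIs. *SLC26A2*, a sulfate transporter (chromosome 5, 149960737 to 149993455), had 111 CPM in marker-free, 54.4 in intermediate and 22.3 in marker-high cells, 5.00-fold (4.54 to 5.51) lower. *MALAT1*, another abundant nuclear RNA, was at 11219.5 to 7259.5 CPM, under 2-fold.

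*SPARC*, a matrix glycoprotein, had 401 CPM in marker-free, 263 in intermediate and 163 in marker-high cells, 2.46-fold (2.36 to 2.56) lower. *TIMP3*, an inhibitor of metalloproteinases, fell from 62.6 to 25.9 CPM and *TNC* (tenascin) from 17.9 to 7.38 CPM. They are the 3 of 25 members of the matrix and adhesion list past 2-fold (median log2 ratio -0.51), whereas *COL4A2* was at 1.51-fold and *ITGB1*, the beta1 integrin, at 1.08-fold. Outside that list, *GSN* (gelsolin), which severs actin, fell from 82.4 to 33.3 CPM, *SORBS2*, of adhesions, from 218 to 89.9 CPM, *PMEPA1*, a target and inhibitor of TGF-beta signalling, from 105 to 49.4 CPM, and *S100A4* from 588 to 278 CPM. *SAT1*, which breaks down polyamines, fell from 213 to 80.5 CPM. Further genes of the 15 largest falls were *DALRD3* (2.11-fold) and the RNAs *SLCO4A1-AS1* (2.88-fold), *MMP24OS* (2.82-fold) and *AC023043.1* (2.06-fold). Where antisense RNAs overlap their partner gene and the counting of strand is not given, their reads cannot be told apart. Against marker-free cells weighted to the depth of marker-high cells, *SAT1* was at -0.97, *PMEPA1* at -0.91, *S100A4* at -0.84 and *AC023043.1* at -0.92 on the log2 scale, all just under 2-fold, while *SPARC* was at -1.03 and *DALRD3* at -1.07. With 5 marker genes *DALRD3* was at -0.99.

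Genes of antigen presentation by MHC class II were at least 2-fold lower in 3 of 5 counted genes (median log2 ratio -1.02). *CD74*, the invariant chain, had 388 CPM in marker-free, 234 in intermediate and 191 in marker-high cells, 2.03-fold (1.95 to 2.11) lower. *HLA-DRA* fell from 46.7 to 15.9 CPM and *HLA-DMA* from 18.5 to 8.73 CPM, while *HLA-DPB1* was at 1.08-fold. Of the 6 neural crest and melanocyte genes, *ERBB3*, the neuregulin receptor, fell from 22.8 to 8.53 CPM, 2.67-fold (2.24 to 3.19), and *RAMP1* from 65.4 to 26.7 CPM. *MITF* lay on the other side at 1.91-fold (1.62 to 2.26), and so did *NGFR* at 0.47 on the log2 scale. The median log2 ratio of the 6 genes was -0.44. Against depth-weighted marker-free cells *CD74* was at -0.51, *HLA-DMA* at -0.86, *ERBB3* at -0.99 and *RAMP1* at -0.86 on the log2 scale, no longer past 2-fold, and *HLA-DRA* at -1.06. With cells classed anew after thinning all 3 of the MHC class II genes were under 2-fold, *HLA-DRA* at -0.92, *CD74* at -0.72 and *HLA-DMA* at -0.55. Along the marker UMIs *SOX10* had 51.7, 40.5, 23.8, 31.9, 35.5 and 50.3 CPM and *CD74* 388, 234, 157, 198, 195 and 239 CPM, both lowest at 5 to 9 and higher again in the last group. MHC class I and interferon genes had a median of -0.33 with no member past 2-fold.

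*FTH1*, the heavy chain of ferritin that stores iron, was among the most abundant transcripts and had 8078 CPM in marker-free, 6324 in intermediate and 4506 in marker-high cells, 1.79-fold (1.78 to 1.81) lower and so under 2-fold. The light chain *FTL* went from 3222 to 2691 CPM. The sum of the NRF2 antioxidant list, 13990.5, 12506 and 10239.8 CPM in the 3 classes, is led by these genes and was lower in marker-high cells, whereas the list's median log2 ratio was 0.05 over 11 members. *TXN* (thioredoxin) was at 1.298-fold. In the list of slow-cycling and resistance-associated genes *NEAT1* was the one member of 10 past 2-fold (median -0.32), with *KDM5A* at 0.969-fold, *TXNIP* from 16.8 to 8.73 CPM and *EGFR* from 8.25 to 12.4 CPM.

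In untreated S cells the same rule gave 1874 marker-high cells of 6693 (28.0%), with a median of 10796 UMIs, and 3099 marker-free cells. In RVC they were 2857 (34.4%) at a median of 5602 UMIs, and in RVT 440 (4.72%) at 4246. The classes depend on depth, which differs between libraries, so these shares were not compared. Of the 5811 genes, 279 (4.8%) were at least 2-fold higher and 31 (0.533%) at least 2-fold lower in marker-high S cells. The higher genes shared by both libraries numbered 234, or 75.7% of the RV and 83.9% of the S genes. The lower genes shared numbered 22, or 35.5% and 71.0%. No gene was past 2-fold in opposite directions. With 1 library each, a difference between RV and S was not tested.

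Genes of S phase and mitosis were higher in marker-high S cells as well. *AURKB* went from 3.13 to 105 CPM there (33.5-fold) and *RRM2* from 11.2 to 202 CPM (18.1-fold). *HIST1H4C* went from 1075 to 6678 CPM, 6.21-fold against 9.96-fold in RV. *NEAT1* was 2.54-fold lower in marker-high S cells (658 to 259 CPM), and its level in marker-free RV cells was 1548 CPM. *CDKN1A* went from 128 to 71.0 CPM in S and *CD74* from 975 to 666 CPM. *FTH1* was at 1.00-fold in S, against 0.558-fold in RV. *HIST1H1C* was at 1.32-fold in S and 0.391-fold in RV, the one gene among the 29 plotted that lay on the other side of 1. Of the integrated stress response list, 3 of 17 members passed 2-fold in S, with a median of 0.77. In RVC 1 of 17 passed 2-fold, downward (median 0.11), and in RVT 1 of 17, upward (median 0.21). All genes counted in RV with a UMI in both classes serve as background. Of these 2.46% were higher and 0.572% lower in RVC (median 0.09), and 7.34% and 2.17% in RVT (median 0.08). The median of all genes in S was 0.08. In RVC the stress response list summed to only 349 CPM in marker-free cells. The AP-1 and immediate-early list had a median of 0.59 in S, -0.0013 in RVC and -0.25 in RVT. Marker-high cells of RVC and RVT were shallower than those of RV and S. The counts of RVC and RVT also list 33538 gene identifiers, against 33694 in RV and S. These differences were not tested.

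**Figure D5:**
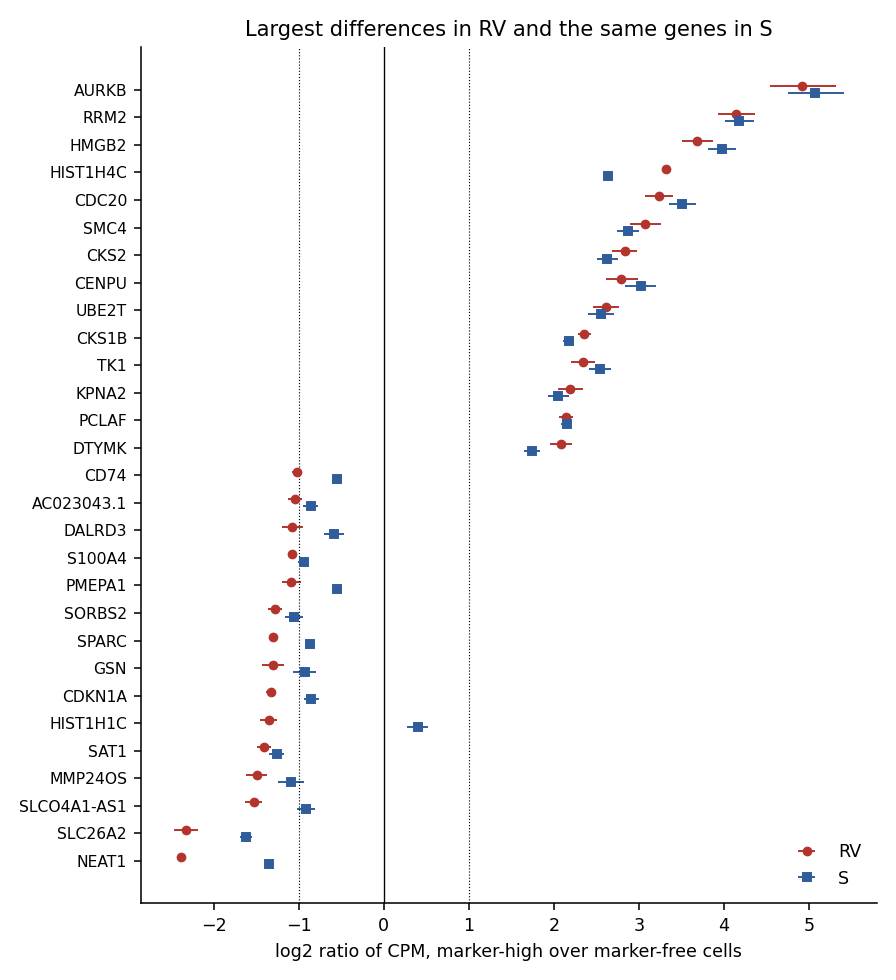
Log2 ratios of CPM in marker-high over marker-free cells with exact 95% intervals for 14 of the 15 largest rises and the 15 largest falls of RV (red) and the same genes in S (blue). The genes were chosen by their RV values. All 14 rises shown lie above 0 in both libraries, and of the 15 falls *HIST1H1C* alone lies above 0 in S.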

How the data were processed

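Single-cell RNA sequencing (10x Genomics Chromium v2) of 4 libraries, 1 per condition, was analysed with RV as the subject and S, RVC and RVT beside it. The files the authors deposited hold raw UMI counts, as Cell Ranger wrote them for each gene in each barcode. The submitters' processing notes name GRCh38 and bcl2fastq 2.20.0.422, and the annotation is not given in the sources used here. Barcodes with at least 500 genes and at most 20% mitochondrial UMIs were kept, 4327 in RV. Their 55283706 UMIs were summed per class and expressed as CPM. The floor set for a count of 0, 3 UMIs, is 0.196 CPM in marker-free and 0.123 CPM in marker-high RV cells.

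Genes with at least 10 CPM over all RV cells were counted, and a 2-fold ratio stands in for a call. Genes were named by a rule on size, among genes of at least 50 CPM the 15 largest and 15 smallest ratios and the 10 largest outside the cell cycle lists, and in each list the 4 largest and 4 smallest ratios of at least 10 CPM. Not every gene that this rule takes is given in the text, and 1 of the 15 largest ratios is not reported here. Of the 33694 identifiers of RV and S 33132 were named with GENCODE 29, and of the 33538 of RVC and RVT 33456. The members, the lists and this rule were chosen with earlier results of these data known. Doublets were not removed in the values reported, since the threshold that scrublet set itself marked 2 cells and so did not work, and an alternative left out the 150 highest scores. Promoters came from RefSeq (GRCh38.p14), and of several entries for a gene the one with the most GENCODE transcript starts was taken.

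Calculations used python 3.11.15, numpy 2.4.6, pandas 2.3.3, scipy 1.17.1 and scanpy 1.11.5 (scrublet), with R 4.3.3 and edgeR 4.0.16 for TMM factors only, and figures matplotlib 3.10.9. Thinning used random seed 1 and left out 100 RV cells with fewer than 5000 UMIs. The formulas for ratios and intervals were checked on simulated class sums with Poisson counts. These sums held no spread between cells and no choice of cells by their own counts, so the check covers the calculation only. The alternatives were other cell filters, other marker numbers and genes, thinned or depth-matched cells, equal weight per cell, other scalings and other filters on low genes.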

Additional observations from a re-analysis of the deposited data

How the results depend on the processing

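Each setting changed 1 choice, except that thinning to 5000 UMIs also classed the cells anew and left out 100 of them. It left 940 marker-high cells of 4227, against 1647, and the number was 1135 and 1996 at limits of 10 and 3 marker UMIs. The count of genes at least 2-fold higher, 309, was 732 when only marker-free cells with a low share of G1/S transcripts were used, 79 among genes with at least 50 CPM and 1374 with no filter but 1 UMI in each class. The count at least 2-fold lower, 62, was 105, 16 and 1535 under the same settings, 41 with 5 marker genes and 112 with the median of ratios. Both filters change the number of genes counted. The median of ratios lowers every log2 ratio by 0.19, and the low G1/S choice by its construction takes out cells with cell cycle transcripts. For the other settings the cause was not tested. TMM factors gave 273 and 74, marker-free cells weighted to equal depth 381 and 46, and removal of the 150 highest doublet scores, of which 101 were marker-high, 334 and 71. Of 32 lists, 9 had sums past 2-fold, and 7 to 10 across the settings. Of 90 named genes past 2-fold, 79 to 90 remained so across the settings, and none past 2-fold changed sign. No paired analysis was possible because each condition is 1 library, and for the same reason no library could be left out. Depth limits the values of single cells, since 1 UMI of 5000 is 200 CPM.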

Other observations

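The most abundant gene at least 2-fold higher in marker-high RV cells outside the lists was *MT2A*, a metallothionein that binds zinc, with 3334 CPM in marker-free, 5289 in intermediate and 7852 in marker-high cells, and it went from 1767 to 4291 CPM in S. This gene and those that follow were chosen after their values were seen. *DEK*, a chromatin protein, went from 82.8 to 228 CPM, *DNMT1*, the methyltransferase that copies DNA methylation after replication, from 46.9 to 116 CPM, and *RANBP1*, a regulator of nuclear transport, from 179 to 419.7 CPM. *SLC1A5*, a glutamine transporter, went from 39.4 to 91.2 CPM.

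*IL1B*, interleukin 1 beta, was 3.52-fold (3.15 to 3.94) lower in marker-high RV cells (66.0 CPM in marker-free, 48.7 in intermediate and 18.7 in marker-high cells) and went from 26.8 to 9.78 CPM in S. *CXCL8*, a neutrophil chemokine, was 2.17-fold (1.98 to 2.40) higher, with 35.9 CPM in marker-free, 38.9 in intermediate and 78.1 in marker-high cells, and *IL11* went from 31.2 to 66.6 CPM. Other genes lower in marker-high cells were *ORAI3*, a calcium channel subunit (60.8 to 15.5 CPM), *TGFA*, a ligand of the epidermal growth factor receptor (78.1 to 28.99 CPM), and *PLAT*, tissue plasminogen activator (73.6 to 30.9 CPM).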
